A study of Mus musculus with 27 samples.

Results

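Immediate early genes are the genes that cells transcribe within minutes of a signal, by means of transcription factors that are already present. The set described here is a list of 31 such genes, chosen by name. The members and the lists of related genes were chosen with earlier results of these data known. Their shares, set beside those of all genes, are therefore descriptions and no independent test. A member was kept in a table of values when its mean normalized count was at least 10. All 31 passed in the table of endothelial cells (EC) with chylomicrons and controls, out of 15595 genes that passed there. In the table of peritoneal macrophages (PMAC) 29 passed out of 13630, since Fosb and Nr4a3 lay under the minimum. In the separate table of EC with SRBI knockdown 29 passed out of 14217, where Dusp2 and Nr4a3 lay under it, so that 28 members were in all 3 tables. Taking all tables, a total of 17047 of 55291 listed genes passed.

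The 18 polyadenylated RNA libraries from mouse cells formed 6 groups of 3: EC labelled SRBI-knockdown, EC chylomicron-treated, EC control, PMAC labelled SRBI-knockdown, PMAC chylomicron-treated and PMAC control. The series title concerns vesicles that endothelial cells release after chylomicron treatment and inflammation in macrophages; chylomicrons are the lipoproteins that carry dietary fat from the gut, and SR-BI, the product of Scarb1, is a lipoprotein receptor. The labels do not say whether macrophages received chylomicrons or vesicles, which cells carried the knockdown for the PMAC libraries, or whether knockdown libraries also received chylomicrons. They give no dose, time, strain, sex or age, and the RNA extraction text names murine PL and PLA cell lines without tying them to libraries. The time between treatment and harvest, on which immediate early genes depend, is therefore not known here. Nothing states that replicates came from separate cultures or animals, so p-values measure the spread between libraries, which may be technical.

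The products of these genes act at several levels. FOS and JUN proteins pair into the AP-1 transcription factor, EGR, KLF6, MYC, MAFF and the NR4A receptors are further transcription factors, and together they switch on later genes. Others end the response: dual-specificity phosphatases (DUSP) remove phosphate from MAP kinases, and the ZFP36 proteins bind AU-rich elements of cytokine transcripts and bring them to the deadenylation machinery. In endothelial cells and macrophages the set is known to respond to growth factors, shear stress, lipids and microbial products.

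Gene-assigned reads per library numbered 16758727 to 20715157 in EC with SRBI knockdown and 40046820 to 46700757 in the other EC libraries, and 30547284 to 55874954 in PMAC. Among PMAC libraries the chylomicron group was shallowest, at 30547284 to 38394674 reads. On the first principal component EC chylomicron replicate 2 stood at 74.5 and the other 5 EC libraries at -30.9 to 4.91. EC control replicate 1 had 8.35% of its reads on mitochondrial genes, against 1.16% to 3.54% in the other EC libraries of its table. Scarb1 had 114, 118 and 120.4 RPM, the reads in each 1000000 of the library, in EC with SRBI knockdown, 207, 274 and 224 in EC with chylomicrons and 251, 290.0 and 303 in EC controls. In macrophages it had 45.4, 43.2 and 51.2 RPM with SRBI knockdown, 37.1, 42.4 and 41.6 with chylomicrons and 58.0, 58.2 and 60.6 in controls. The summed level of 13 macrophage markers was 38900 to 43200 RPM in PMAC with SRBI knockdown, 35400 to 38500 with chylomicrons and 61100 to 65200 in controls. Lyz2, 1 of the 13, was the most abundant gene of the control libraries and alone held 3.98% to 4.20% of their reads. In the other PMAC groups the most abundant gene was Fth1. Each of the 13 markers reached 1 RPM in at least 1 library of each PMAC group. In EC 15 endothelial markers summed to 571 to 612 RPM with SRBI knockdown, 1220 to 1610 with chylomicrons and 1560 to 1760 in controls. Cldn5 was under 1 RPM in every library of each group. Kdr, Erg, Robo4 and Sox18 were under 1 RPM in every library of EC with SRBI knockdown, but not in every library of the other EC groups. The summed level of 11 fibroblast and mural cell markers stood above the endothelial sum in EC. It was 9570 to 12000 RPM with SRBI knockdown, 16100 to 17900 with chylomicrons and 17300 to 20200 in controls. Col1a2 and Cspg4 of that list were under 1 RPM in each EC group. Col3a1, also of that list, alone held 1.46% of the reads of EC chylomicron replicate 2. The 8 mesothelial markers summed to 531 to 566 RPM in EC with SRBI knockdown, against 27.8 to 30.4 with chylomicrons and 32.2 to 34.2 in controls. In bulk RNA fewer cells of a type and less RNA per cell cannot be told apart.

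The promoters of several members carry the sites for which immediate early genes are known. RefSeq windows of GRCm38.p6, from 250 bases before to 50 after a start, matched 24 of the 31 members with 30 windows; Fosl1, Egr1, Egr3, Ier2, Zfp36l2, Dusp4 and Myc were not matched. Both strands were searched, and a site matched on both was counted a single time. The CArG box, which serum response factor binds, stood in 6 of 30 member windows (20%), against 1.63% of all 32851 windows. By gene these were 3 of the 24 members matched, Egr2, Zfp36 and Dusp5, against 1.81% of all 27025 genes. The cAMP response element TGACGTCA stood in 4 member windows (13.3%), those of Dusp1, Btg2, Maff and Plk2, against 1.79% of all windows. The EGR site GCGNGGGCG stood in 30% of member windows and 5.55% of all, and the kappaB site, by its name, in 20% and 4.51%. The AP-1 site TGANTCA stood in 3.33% of member windows and 7.81% of all, and the ETS site CCGGAAG in 3.33% and 8.86%. Windows of a gene overlap, as in Egr2, where 3 of 4 windows with a box held the same one. These matches describe letters in a window and show no binding. The stretches shown belong to members whose values are followed below; capitals mark the site and the last base is the base before the start, except for Egr2 and Maff, where only the surroundings of the site are given. Zfp36 carried a CArG box and an EGR site, and also an ETS site at -92 to -86 that is left in lower case. Dusp5 carried a pair of adjoining CArG boxes, Egr2 a CArG box, Ier3 a kappaB site and Dusp1 and Maff a cAMP response element.
Zfp36, chr7:28379229-28379378, minus strand: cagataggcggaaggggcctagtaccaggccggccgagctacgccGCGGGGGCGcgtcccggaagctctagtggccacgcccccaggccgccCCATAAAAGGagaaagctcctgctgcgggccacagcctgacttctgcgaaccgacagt
Dusp5, chr19:53528995-53529144, plus strand: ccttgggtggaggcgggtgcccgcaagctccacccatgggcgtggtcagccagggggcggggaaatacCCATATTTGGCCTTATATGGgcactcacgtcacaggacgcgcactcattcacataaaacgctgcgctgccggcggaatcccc
Egr2, chr10:67537787-67537816, plus strand: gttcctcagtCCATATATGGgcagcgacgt
Ier3, chr17:35821563-35821712, plus strand: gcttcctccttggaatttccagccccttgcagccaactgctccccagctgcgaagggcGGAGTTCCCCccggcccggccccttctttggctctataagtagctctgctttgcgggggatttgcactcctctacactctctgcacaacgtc
Dusp1, chr17:26508473-26508622, minus strand: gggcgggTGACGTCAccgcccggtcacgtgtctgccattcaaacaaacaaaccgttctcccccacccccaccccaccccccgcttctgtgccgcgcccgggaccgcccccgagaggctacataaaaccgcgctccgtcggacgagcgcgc
Maff, chr15:79347481-79347508, plus strand: gctggggcggTGACGTCActgcatgact

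In endothelial cells 11 of the 31 members rose with chylomicrons and 0 fell by limma, while 20 did not pass. Over all genes tested 5.16% rose and 3.28% fell. The median log2 fold change was 0.26 over the members and -0.02 over all genes. Of the 20 that did not pass, log2 fold changes ran from -0.87 to 0.44, and 6 of them had an unadjusted p under 0.05: Myc, Btg2, Ier2, Klf6, Jund and Egr1. The count that fell was 0 at an unadjusted p under 0.05 too, and 0 by edgeR, DESeq2 and each other alternative run. Of the 14 endothelial markers tested here 0 rose and 5 fell, with a median log2 fold change of -0.37: Egfl7 at -0.50, Emcn at -0.40, Vwf at -0.66, Erg at -0.45 and Esam at -0.35. The count that fell was 8 without EC chylomicron replicate 2, 3 without EC chylomicron replicate 1 or 3, 2 without EC control replicate 1 and 1 without EC control replicate 2, and the part of these markers in the member results was not tested. A value called a normalized count is the authors' read count divided by a factor of its library; every adjusted p is from limma on log2 of that count plus 1, with Benjamini-Hochberg adjustment over all genes tested and 3 libraries in each group. "Rose" and "fell" stand for an adjusted p under 0.05, and positions of genes are those of RefSeq on GRCm38.p6.

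**Figure D1:**
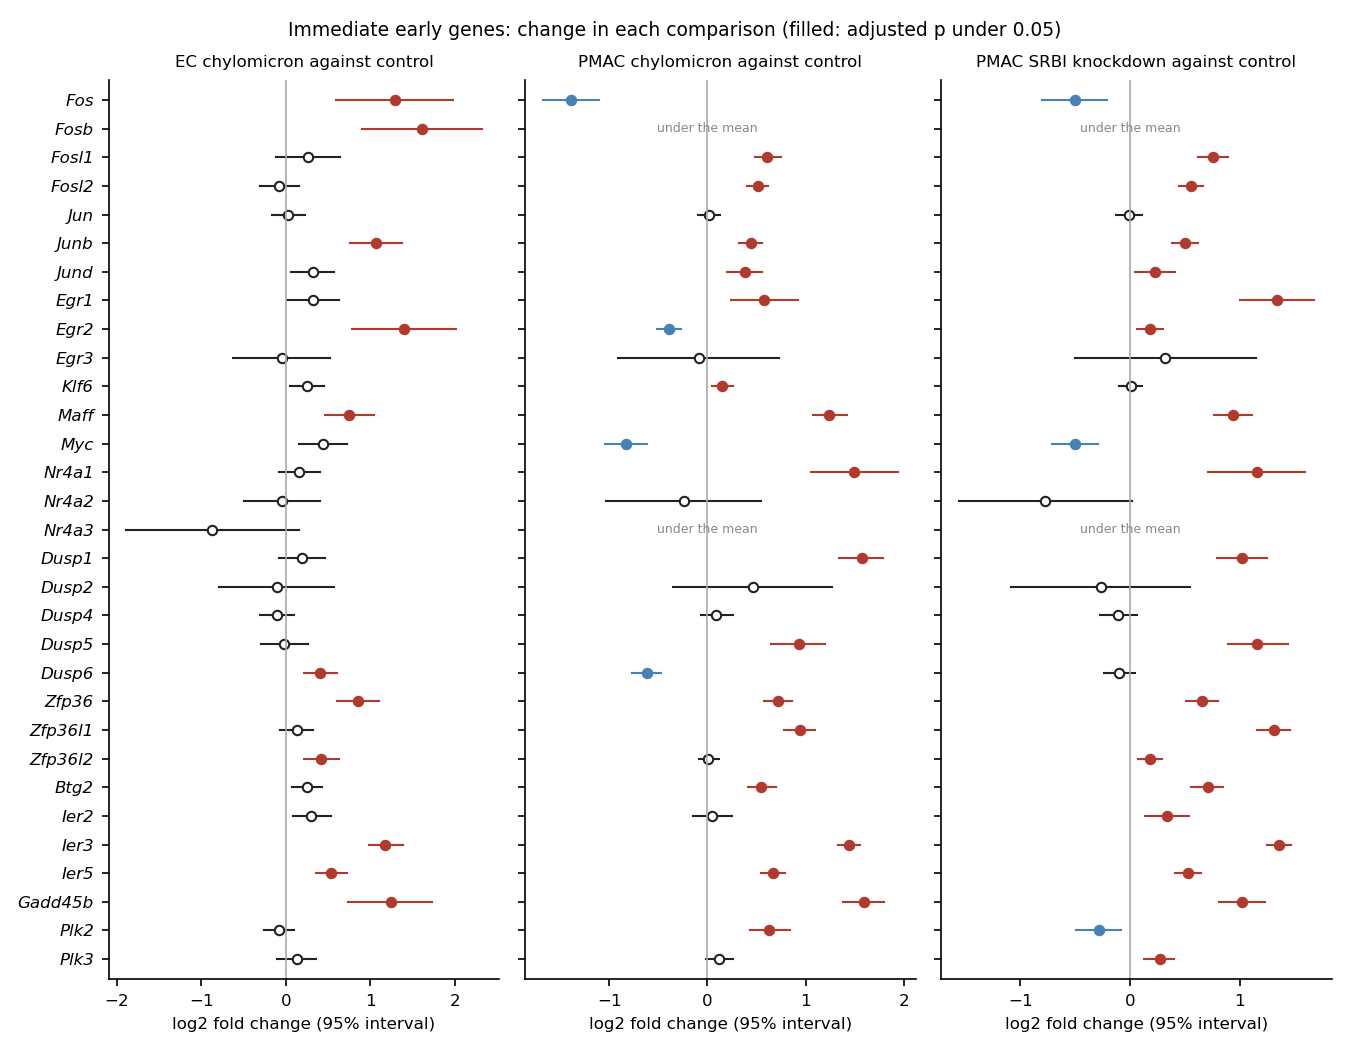
Log2 fold change (horizontal axis, with 95% interval) of each member, by role, in the 3 comparisons with controls; filled points passed an adjusted p of 0.05, red for higher and blue for lower. In EC 11 members lie above 0 and 0 below among filled points, in PMAC with chylomicrons 17 and 4, and in PMAC with SRBI knockdown 19 and 3.

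Among AP-1 subunits in EC, Fos, Fosb and Junb rose and the other 4 did not pass. Junb (chromosome 8, 84976909 to 84978748), a JUN family member, had 1647, 2289 and 1702 normalized counts with chylomicrons, against 1081, 774 and 827 in controls. The groups did not overlap, and the log2 fold change was 1.07 (95% interval 0.76 to 1.38, adjusted p = 0.000441). Fosb (chromosome 7, 19302696 to 19310118), a FOS family member, had 383, 670.1 and 234 with chylomicrons and 85.5, 141 and 173 in controls, a change of 1.61 (adjusted p = 0.00748). Fos itself (chromosome 12, 85473890 to 85477274) had 545, 1600.2 and 604 with chylomicrons and 419, 249 and 346 in controls. Chylomicron replicate 2 was highest in all 3 genes, and for Fos the other 2 chylomicron libraries lay nearer to the highest control than to it. The log2 change of Fos was 1.29 (95% interval 0.59 to 1.98, adjusted p = 0.0244), and 0.80 (adjusted p = 0.0147) without EC chylomicron replicate 2. The call for Fos did not hold without EC control replicates 1, 2 or 3 (adjusted p = 0.0524, 0.0919 and 0.0679), with limma without a trend (adjusted p = 0.228) and with DESeq2 (adjusted p = 0.0674), with adjusted p from 0.00599 to 0.228 over 16 alternatives. The call for Fosb did not hold without EC control replicate 1 (adjusted p = 0.0526), with limma without a trend (adjusted p = 0.137) and without EC chylomicron replicate 2 and EC control replicate 1 together (adjusted p = 0.0586), with adjusted p from 0.00124 to 0.137 over 16 alternatives. Without EC chylomicron replicate 2 and EC control replicate 1 together the change of Fosb was 0.94. Jun, the founding JUN gene, had 4171 ± 445 with chylomicrons and 4079 ± 255 in controls (SD, n = 3 each), a log2 change of 0.03 with an interval of -0.17 to 0.23. For Jund the change was 0.32 (95% interval 0.06 to 0.57, adjusted p = 0.136), and it passed without EC chylomicron replicate 3 (adjusted p = 0.0304). The remaining FOS genes, Fosl1 and Fosl2, stood at 0.26 and -0.08.

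Egr2 and Maff were the 2 of 6 further transcription factor genes that rose in EC. Egr2 (chromosome 10, 67534469 to 67542188), a zinc finger factor, was scarce, with 89.3, 81 and 65.9 normalized counts with chylomicrons and 24, 34.1 and 29.7 in controls. Its groups lay apart, with a log2 change of 1.40 (95% interval 0.78 to 2.02, adjusted p = 0.00803). The call for Egr2 did not hold without EC chylomicron replicate 2 and EC control replicate 1 together (adjusted p = 0.0523), with adjusted p from 0.00168 to 0.0523 over 16 alternatives. Maff (chromosome 15, 79346621 to 79359078), a small MAF protein without an activation domain of its own, had 387, 454 and 486 with chylomicrons and 233, 272 and 280.2 in controls, a change of 0.75 (95% interval 0.46 to 1.04, adjusted p = 0.00313). Every chylomicron library was above every control for Maff. Egr1, the best-known EGR factor, had 1402, 1918 and 1322 with chylomicrons against 1460.0, 1164 and 1077 in controls, and the groups overlapped (log2 change 0.32, 95% interval 0.01 to 0.63, adjusted p = 0.24). Myc, a regulator of growth genes, had 839, 1087 and 742 with chylomicrons and 668, 693 and 590.1 in controls without overlap, but did not pass (log2 change 0.44, adjusted p = 0.0669). A rise of Myc passed without EC chylomicron replicate 3 (adjusted p = 0.0162), with a mean of at least 50 (adjusted p = 0.0473), on the RPM scale (adjusted p = 0.0417) and with DESeq2 (adjusted p = 0.0231), with adjusted p from 0.0143 to 0.247 over 16 alternatives. Klf6 stood at 0.25 (adjusted p = 0.136) and Egr3 at -0.05 (adjusted p = 0.946). None of the 3 orphan nuclear receptor genes passed: Nr4a1 changed by 0.16, Nr4a2 by -0.05 and Nr4a3 by -0.87, the last at 11 to 14.4 normalized counts with chylomicrons and 19.8 to 30.4 in controls.

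Of the genes whose products restrain the response, Zfp36 rose most clearly in EC. Zfp36 (chromosome 7, 28376784 to 28379228), which encodes tristetraprolin, had 1952, 2599 and 1952 normalized counts with chylomicrons and 1271, 1085 and 1227 in controls, a log2 change of 0.85 (95% interval 0.60 to 1.10, adjusted p = 0.000492). All chylomicron libraries were above all controls. Its relative Zfp36l2 rose less, with 9218 to 11939 with chylomicrons against 7436 to 7883 in controls (log2 change 0.42, adjusted p = 0.0172). The call for Zfp36l2 did not hold without EC control replicates 1, 2 or 3 (adjusted p = 0.0728, 0.0931 and 0.0683), with limma without a trend (adjusted p = 0.127) and without EC chylomicron replicate 2 and EC control replicate 1 together (adjusted p = 0.0781), with adjusted p from 0.000137 to 0.127 over 16 alternatives. Zfp36l1 (0.13) and the antiproliferative factor gene Btg2 (log2 change 0.25, adjusted p = 0.0976) did not pass. Among 5 MAP kinase phosphatase genes Dusp6 alone rose, the cytoplasmic phosphatase of ERK (chromosome 10, 99263231 to 99267489), at 6504, 8243 and 7224 with chylomicrons against 5468, 5295 and 5658 in controls (log2 change 0.41, 95% interval 0.21 to 0.61, adjusted p = 0.0132). The call for Dusp6 did not hold without EC control replicates 1 or 2 (adjusted p = 0.0734 and 0.0779), with limma without a trend (adjusted p = 0.111) and without EC chylomicron replicate 2 and EC control replicate 1 together (adjusted p = 0.0951), with adjusted p from 0.000121 to 0.111 over 16 alternatives. Dusp1, which acts on p38 and JNK, stood at 0.19 (95% interval -0.08 to 0.46, adjusted p = 0.48), and Dusp2, Dusp4 and Dusp5 lay between -0.11 and -0.02.

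Ier3, Ier5 and Gadd45b rose among the IER, growth arrest and Polo-like kinase genes. Ier3 (chromosome 17, 35821713 to 35822911), a regulator of cell survival, gave the lowest adjusted p of all members in EC, with 2375, 2474 and 2660.0 normalized counts with chylomicrons and 1244, 991 and 1079 in controls. The groups lay far apart, and the change was 1.18 (95% interval 0.98 to 1.39, adjusted p = 9.62e-06). Gadd45b (chromosome 10, 80930091 to 80932204), a stress sensor that binds kinases upstream of p38, had 164, 199 and 155 with chylomicrons and 95.9, 55.2 and 71.1 in controls (log2 change 1.24, 95% interval 0.74 to 1.73, adjusted p = 0.00404). Ier5, a regulator of the heat shock factor HSF1, had 1341 to 1480.1 with chylomicrons against 924 to 1012 in controls without overlap (log2 change 0.54, adjusted p = 0.00137). Ier2 stood at 0.30 (adjusted p = 0.107) and passed without EC chylomicron replicate 1 (adjusted p = 0.023). The kinase genes Plk2 and Plk3 stood at -0.08 and 0.13. The 7 members that rose in EC without EC control replicate 1 were Junb, Egr2, Ier3, Ier5, Zfp36, Maff and Gadd45b, and 7 rose with EC chylomicron replicate 2 left out as well, where Fos passed and Egr2 did not.

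**Figure D2:**
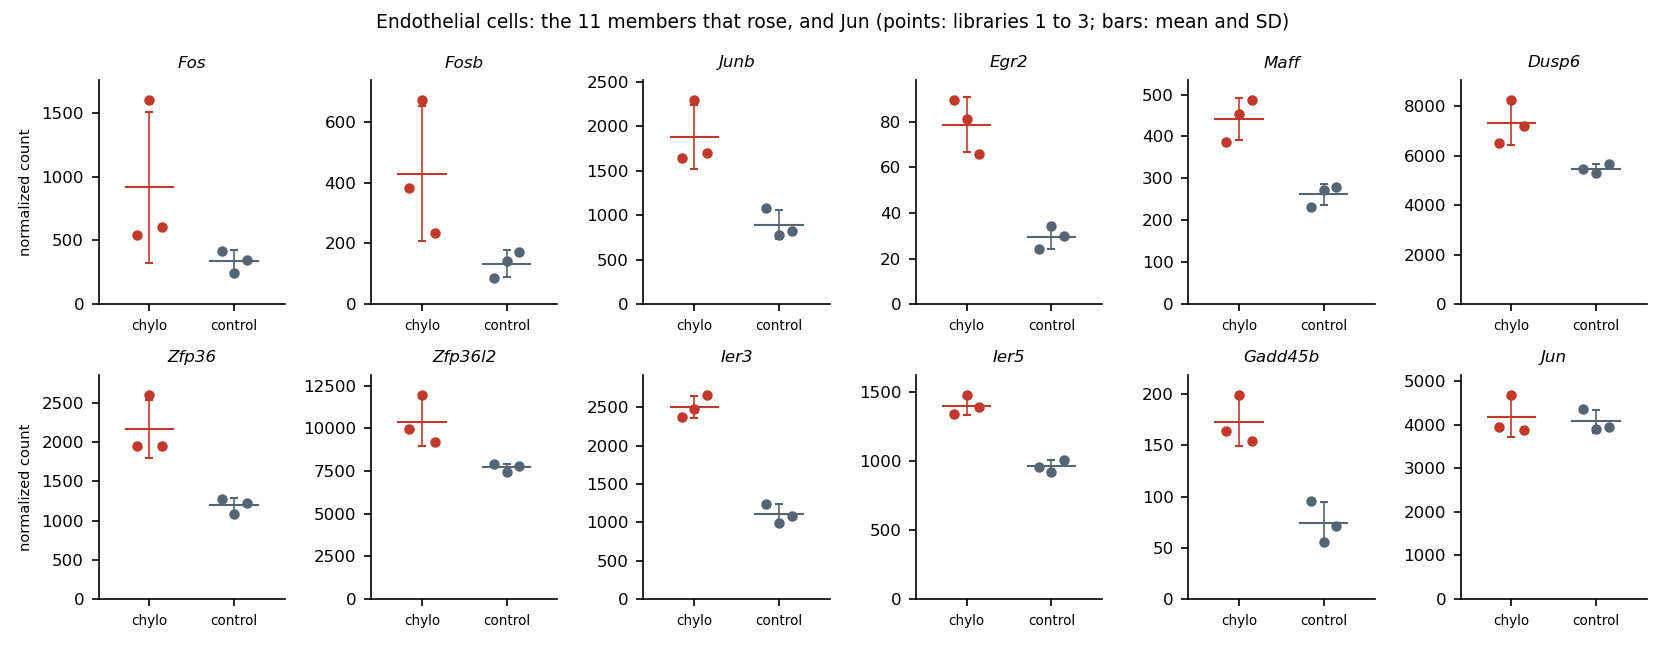
Normalized counts (vertical axes, linear, from 0) of the 11 members that rose in EC and of Jun, one point for each chylomicron or control library, with mean and SD as bars. Fos is spread from 545 to 1600.2 with chylomicrons, while Ier3 keeps its groups far apart and Jun overlaps.

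Other genes of the pathway were counted in EC from lists of related genes, beside the 5.16% of all genes that rose and the 3.28% that fell. These lists were chosen with earlier results of these data known. Of 29 other immediate early and primary response genes 9 rose and 1 fell: Nfkbia, the inhibitor of NF-kappaB, by 1.69 on the log2 scale and Tnfaip3, a ubiquitin-editing inhibitor of the same pathway, by 1.37, with Ccn2, a matricellular protein gene, at -0.56. Among 11 measured transcripts with AU-rich elements 6 rose and 1 fell, led by the chemokine genes Ccl2 (4.01) and Cxcl1 (2.84); the fall, of Il1a at -1.56, had an adjusted p of 0.0853 when EC control replicate 1 was left out. Of 16 AP-1 target genes 5 rose and 0 fell. Of 11 GADD45 and Polo-like kinase relatives 3 rose and 0 fell. Of 14 AP-1 partners and relatives 0 rose and 1 fell, and of 10 other Kruppel-like factors 0 rose and 1 fell. Of 5 EGR relatives and their corepressors 0 rose and 0 fell. The share that rose was near that of all genes in some lists. Of 18 other ERK and MAP kinase feedback genes 1 rose (5.56%) and 1 fell. In the MAP kinase cascade 2 of 28 rose (7.14%) and 0 fell, with Map3k8, the kinase also called TPL2, at 1.03, while 1 rose without EC control replicate 2 or 3 and 1 fell without EC chylomicron replicate 2. Among 17 regulators upstream, the SRF, ternary complex factor and CREB genes, 1 rose (5.88%) and 0 fell, a call held only with all libraries or without EC chylomicron replicate 3, and 1 fell without EC chylomicron replicate 1 or 2. Of 24 measured genes for the mRNA decay machinery that ZFP36 and BTG proteins recruit 1 rose (4.17%) and 0 fell; the riser was Zc3h12a (1.71), which encodes an endoribonuclease and not a deadenylase. Of 24 MYC target genes 4 rose (16.7%) and 0 fell, while 1 rose without EC control replicate 1 and 2 without EC control replicate 2 or 3.

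In macrophages labelled chylomicron-treated 17 of the 29 members tested rose, 4 fell and 8 did not pass. Over all 13630 genes tested 16.0% rose and 17.4% fell. The median log2 fold change was 0.46 over the members and -0.01 over all genes. Scaling to RPM in place of the authors' factors moved the median of all genes by -0.12 (log2) and the split of all calls to 1307 higher of 5073, against 2178 of 4550. On that scale 16 members rose and 4 fell. The macrophage marker list moved with the groups: 3 of its 13 genes rose and 8 fell, beside the summed levels given above, and its part in the member results was not tested. The summed level of 8 erythroid and platelet markers was 4560 to 5200 RPM with chylomicrons and 1930 to 2100 in controls. Of the 8, 6 were under 1 RPM in every library of both groups. Only Pf4 and Ppbp reached 1 RPM in a library, and their part was not tested.

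The phosphatase gene Dusp1 and the orphan receptor gene Nr4a1 rose in PMAC with chylomicrons. Dusp1 (chromosome 17, 26505591 to 26508472) had 1488, 1509 and 1579 normalized counts with chylomicrons and 634, 461 and 467 in controls, far apart, with a log2 change of 1.57 (95% interval 1.34 to 1.79, adjusted p = 3.7e-09). Nr4a1 (chromosome 15, 101253902 to 101274795), also called NUR77, had 348, 324 and 236 with chylomicrons and 116, 135 and 75.2 in controls (log2 change 1.49, 95% interval 1.05 to 1.94, adjusted p = 2.4e-05). Dusp5, a nuclear phosphatase of ERK (chromosome 19, 53529145 to 53541809), had 560.0, 648 and 496 with chylomicrons against 264, 337 and 294 in controls (log2 change 0.93, 95% interval 0.65 to 1.20, adjusted p = 2.44e-05). In contrast Dusp6 fell, with 3815, 4035 and 3322 with chylomicrons and 5733, 5985 and 5410.0 in controls (log2 change -0.62, 95% interval -0.77 to -0.47, adjusted p = 1.78e-06), and all 3 treated libraries were below all controls. Dusp2 and Dusp4 did not pass, at 0.46 and 0.09, and Nr4a2 stood at -0.24 (95% interval -1.03 to 0.55, adjusted p = 0.666).

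Within AP-1 the FOS genes moved in opposite directions in PMAC. Fos had 247, 277 and 289 normalized counts with chylomicrons and 669, 809 and 661 in controls, a log2 change of -1.39 (95% interval -1.68 to -1.10, adjusted p = 4.03e-07). The highest treated library was under the lowest control. Fosl1 (FRA1) had 1462, 1497 and 1397 with chylomicrons and 961, 912 and 971 in controls (log2 change 0.61, adjusted p = 9.91e-07), and Fosl2 (FRA2) rose by 0.51 (adjusted p = 5.36e-07). Of the JUN genes Junb rose by 0.44 (adjusted p = 1.13e-05) and Jund by 0.38 (adjusted p = 0.00231). The call for Jund did not hold without PMAC chylomicron replicates 1 and 2 together (adjusted p = 0.0659), with adjusted p from 0.000148 to 0.0659 over 19 alternatives. Jun did not pass (log2 change 0.02, 95% interval -0.10 to 0.13, adjusted p = 0.85) and stood at -0.10 on the RPM scale. Fosb was listed at 15.2, 0 and 2.17 normalized counts with chylomicrons and at 0 in all 3 controls, where a count of 0 allows up to 0.0652 to 0.0701 RPM by a floor of 3 reads, and it was not tested.

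Of 6 further transcription factor genes Maff, Egr1 and Klf6 rose in PMAC and Egr2 and Myc fell. Maff had 2062, 2099 and 2114 normalized counts with chylomicrons and 943, 755 and 970.4 in controls, without overlap (log2 change 1.24, 95% interval 1.07 to 1.42, adjusted p = 2.13e-09). Myc (chromosome 15, 61985341 to 61990361) had 659, 572 and 725 with chylomicrons against 1117, 1269 and 1089 in controls (log2 change -0.83, 95% interval -1.04 to -0.62, adjusted p = 4.01e-06). Egr2 was abundant in macrophages, at 3279, 3227 and 3307 with chylomicrons and 3950.4, 4444 and 4502 in controls, and fell by 0.39 on the log2 scale (adjusted p = 3.42e-05). Egr1 rose by 0.58 (95% interval 0.24 to 0.92, adjusted p = 0.0103), with 247, 379 and 297 with chylomicrons against 221, 204 and 183 in controls. The call for Egr1 did not hold without PMAC chylomicron replicate 2 (adjusted p = 0.0508), with adjusted p from 0.00207 to 0.0508 over 19 alternatives. Klf6 rose by 0.15 (adjusted p = 0.0227), the smallest change that passed. The call for Klf6 did not hold without PMAC chylomicron replicates 1 or 3 (adjusted p = 0.0535 and 0.0636), without PMAC control replicate 1 (adjusted p = 0.119), with limma without a trend (adjusted p = 0.0871), on the RPM scale (adjusted p = 0.596) and without PMAC chylomicron replicates 1 and 2 together (adjusted p = 0.0752), with adjusted p from 0.00997 to 0.596 over 19 alternatives. Egr3 was scarce, at 22.1 to 37 with chylomicrons and 25.3 to 37.7 in controls, and stood at -0.09 (95% interval -0.91 to 0.73, adjusted p = 0.886).

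Gadd45b and Ier3 showed large rises in PMAC with chylomicrons. Gadd45b had 2128, 2243 and 1918 normalized counts with chylomicrons and 777, 569 and 753 in controls (log2 change 1.59, 95% interval 1.38 to 1.80, adjusted p = 1.07e-09). Ier3 had 20552, 20650.5 and 20084 with chylomicrons against 8213, 7176 and 7180.1 in controls (log2 change 1.44, 95% interval 1.33 to 1.55, adjusted p = 5.61e-13). The chylomicron libraries lay far above the controls in both genes. Ier5 rose by 0.67 (adjusted p = 4.47e-08) and Plk2, a Polo-like kinase, by 0.63 (adjusted p = 6.31e-05); Ier2 (log2 change 0.05, adjusted p = 0.746) and Plk3 (log2 change 0.12, adjusted p = 0.175) did not pass. Of the mRNA decay genes 3 of 4 rose: Zfp36l1 from the tristetraprolin family by 0.94 (95% interval 0.78 to 1.09, adjusted p = 1.59e-08), Zfp36 by 0.72 (adjusted p = 2.06e-07) and Btg2 by 0.55 (adjusted p = 5.78e-06). Zfp36l2 stood at 0.01 (95% interval -0.09 to 0.12, adjusted p = 0.86), and at -0.10 on the RPM scale.

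In macrophages labelled SRBI-knockdown 19 of 29 members rose against controls, 3 fell and 7 did not pass, where 14.7% of all genes rose and 15.5% fell. The median log2 fold change was 0.34 over the members and 0.01 over all genes. On the RPM scale the split of all calls was 1372 higher of 4394, against 1998 of 4109, and 16 members rose and 4 fell. Without a trend in limma 15 members rose and 1 fell. These libraries share their controls with the chylomicron libraries, so values of both comparisons are set side by side and no overlap is drawn from them. Of 13 macrophage markers 2 rose and 10 fell, and their part in the member results was not tested.

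Egr1 and Zfp36l1 were among the members that rose by more than 1 on the log2 scale in PMAC with SRBI knockdown. Egr1 had 538, 429 and 587 normalized counts with SRBI knockdown and 221, 204 and 183 in controls, without overlap (log2 change 1.34, 95% interval 1.00 to 1.68, adjusted p = 4.77e-06). Zfp36l1 had 4411, 3733 and 3948 with SRBI knockdown against 1643, 1746 and 1488 in controls (log2 change 1.31, 95% interval 1.16 to 1.46, adjusted p = 1.99e-10). All 4 mRNA decay genes rose, with Btg2 at 0.71 (adjusted p = 3.53e-07), Zfp36 at 0.66 (adjusted p = 7.01e-07) and Zfp36l2 at 0.18 (adjusted p = 0.0116). The call for Zfp36l2 did not hold without PMAC SRBI knockdown replicate 3 (adjusted p = 0.0558), without PMAC control replicate 3 (adjusted p = 0.0806), with limma without a trend (adjusted p = 0.0635) and on the RPM scale (adjusted p = 0.111), with adjusted p from 0.00331 to 0.111 over 18 alternatives. Egr2 rose by 0.18 (adjusted p = 0.0236). The call for Egr2 did not hold without PMAC SRBI knockdown replicates 1 or 3 (adjusted p = 0.05 and 0.114), without PMAC control replicate 1 (adjusted p = 0.145), with limma without a trend (adjusted p = 0.0862) and on the RPM scale (adjusted p = 0.211), with adjusted p from 0.0125 to 0.211 over 18 alternatives. Maff rose by 0.94 (adjusted p = 8.63e-08), while Myc had 829, 742 and 885 with SRBI knockdown and 1117, 1269 and 1089 in controls and fell by 0.50 on the log2 scale (adjusted p = 0.000862). Klf6 (0.01) and Egr3 (0.32) did not pass.

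The AP-1 genes Fosl1, Fosl2 and Junb rose in PMAC with SRBI knockdown, by 0.76, 0.56 and 0.50 on the log2 scale (adjusted p = 8.43e-08, 1.96e-07 and 2.49e-06). Fos had 492, 412 and 618 normalized counts with SRBI knockdown and 669, 809 and 661 in controls, a change of -0.50 (95% interval -0.80 to -0.21, adjusted p = 0.00974). Each knockdown library was below each control, though the highest came close. The call for Fos did not hold without PMAC SRBI knockdown replicate 2 (adjusted p = 0.0731), without PMAC control replicate 2 (adjusted p = 0.0665) and with limma without a trend (adjusted p = 0.0531), with adjusted p from 0.00186 to 0.0731 over 18 alternatives. Jund rose by 0.23 (adjusted p = 0.0475) with overlapping groups. The call for Jund did not hold without PMAC SRBI knockdown replicates 1 or 3 (adjusted p = 0.133 and 0.158), without PMAC control replicates 2 or 3 (adjusted p = 0.19 and 0.143), with a pseudocount of 0.5 (adjusted p = 0.0504), with no minimum on the mean (adjusted p = 0.0896), with limma without a trend (adjusted p = 0.181) and on the RPM scale (adjusted p = 0.166), with adjusted p from 0.0126 to 0.19 over 18 alternatives. Jun stood at -0.01 (95% interval -0.13 to 0.11, adjusted p = 0.926). Fosb was listed at 0, 4 and 2.25 normalized counts with SRBI knockdown and at 0 in controls.

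Among phosphatase genes Dusp5 and Dusp1 rose in PMAC with SRBI knockdown. Dusp5 had 776, 637 and 598 normalized counts with SRBI knockdown and 264, 337 and 294 in controls (log2 change 1.16, 95% interval 0.89 to 1.44, adjusted p = 1.98e-06). Dusp1 had 1060.4, 1130.2 and 948 with SRBI knockdown against 634, 461 and 467 in controls (log2 change 1.02, 95% interval 0.79 to 1.25, adjusted p = 9.51e-07), and the groups lay apart in both genes. Dusp6 stood at -0.10 (95% interval -0.24 to 0.05, adjusted p = 0.339) and fell on the RPM scale (adjusted p = 0.0421). Dusp4 (-0.11) and Dusp2 (-0.26) did not pass. Nr4a1 rose by 1.16 (adjusted p = 0.000372), with 266, 225 and 221 with SRBI knockdown against 116, 135 and 75.2 in controls. Nr4a2 had 23.7, 43.2 and 21.8 with SRBI knockdown against 48.7, 46.1 and 51.5 in controls and stood at -0.77 (adjusted p = 0.139).

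Ier3 rose with SRBI knockdown to 19508, 19652 and 18648 normalized counts, against 8213, 7176 and 7180.1 in controls (log2 change 1.36, 95% interval 1.25 to 1.47, adjusted p = 1.23e-12). Gadd45b rose by 1.02 (adjusted p = 3.66e-07), Ier5 by 0.53 (adjusted p = 9.81e-07), Ier2 by 0.34 (adjusted p = 0.0109) and Plk3 by 0.27 (adjusted p = 0.00432). The call for Ier2 did not hold without PMAC SRBI knockdown replicate 1 (adjusted p = 0.0828), without PMAC control replicate 3 (adjusted p = 0.0588) and with limma without a trend (adjusted p = 0.071), with adjusted p from 0.0032 to 0.0828 over 18 alternatives. Plk2 fell, with 3124, 3959.5 and 3694 with SRBI knockdown and 3974, 3957 and 5249.6 in controls, overlapping groups and a log2 change of -0.28 (95% interval -0.49 to -0.08, adjusted p = 0.0352). The call for Plk2 did not hold without PMAC SRBI knockdown replicates 1 or 3 (adjusted p = 0.208 and 0.0501), without PMAC control replicate 3 (adjusted p = 0.221), with no minimum on the mean (adjusted p = 0.0703), with limma without a trend (adjusted p = 0.179) and with DESeq2 (adjusted p = 0.124), with adjusted p from 0.0118 to 0.221 over 18 alternatives. Its change was -0.19 without PMAC SRBI knockdown replicate 1 and -0.15 without PMAC control replicate 3.

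Lists of related genes were counted in both PMAC comparisons with controls. Over all genes tested 14.7% rose and 15.5% fell with SRBI knockdown, and 16.0% rose and 17.4% fell with chylomicrons. As in EC, the lists were chosen with earlier results of these data known. Of 30 other immediate early and primary response genes 15 rose and 5 fell with SRBI knockdown, and 14 rose and 6 fell with chylomicrons. Ptgs2, which encodes cyclooxygenase 2, stood at 4.45 on the log2 scale with SRBI knockdown and 4.87 with chylomicrons, and Phlda1 at 2.10 with SRBI knockdown and 1.85 with chylomicrons. Klf2, a Kruppel-like factor, was at -2.09 with SRBI knockdown and -1.97 with chylomicrons. All 16 transcripts with AU-rich elements were measured, and 13 rose and 1 fell with SRBI knockdown while 14 rose and 0 fell with chylomicrons; without PMAC chylomicron replicate 2, 1 fell. Il1b, the interleukin 1 beta gene, stood at 4.69 with SRBI knockdown and 5.06 with chylomicrons. Of 17 AP-1 target genes 12 rose and 4 fell with SRBI knockdown and 10 rose and 6 fell with chylomicrons, among them Mmp13, a collagenase gene, at 3.46 with SRBI knockdown and 2.60 with chylomicrons. The AP-1 partner gene Batf3 stood at 2.22 with SRBI knockdown and 2.61 with chylomicrons, in a list of 16 of which 5 rose and 4 fell with SRBI knockdown, 3 rising without PMAC SRBI knockdown replicate 1, and 4 rose and 5 fell with chylomicrons. Of 11 GADD45 and Polo-like kinase relatives 3 rose and 2 fell with SRBI knockdown, and 4 rose and 4 fell with chylomicrons. Of 10 other Kruppel-like factors 2 rose and 2 fell with SRBI knockdown, and 2 rose and 3 fell with chylomicrons. Of 5 EGR relatives and their corepressors 0 rose and 1 fell with SRBI knockdown, and 0 rose and 2 fell with chylomicrons. In the MAP kinase cascade 6 rose and 4 fell of 28 with SRBI knockdown (21.4% and 14.3%), and 8 rose and 5 fell with chylomicrons (28.6% and 17.9%). Of 17 regulators upstream 8 rose and 2 fell with SRBI knockdown, and 6 rose and 2 fell with chylomicrons. Of 17 other ERK and MAP kinase feedback genes 6 rose and 0 fell with SRBI knockdown, and 5 rose and 2 fell with chylomicrons. Of 24 genes of the mRNA decay machinery 9 rose and 2 fell with SRBI knockdown, and 6 rose and 3 fell with chylomicrons. Among MYC target genes 4 rose and 6 fell of 22 with SRBI knockdown (18.2% and 27.3%) and 5 rose and 7 fell with chylomicrons (22.7% and 31.8%); the count that fell was 3 without PMAC SRBI knockdown replicate 1 or PMAC control replicate 1, and the count that rose with chylomicrons was 3 without PMAC control replicate 3.

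Set directly against macrophages with chylomicrons, those labelled SRBI-knockdown had 7 members higher and 4 lower, and 18 did not pass. Over all genes 5.6% were higher and 5.59% lower. The median log2 difference was 0.05 over the members and 0.01 over all genes. Scarb1 itself was not lower under the knockdown label, at 45.4, 43.2 and 51.2 RPM against 37.1, 42.4 and 41.6 with chylomicrons. The labels do not say which cells carried the knockdown. On the RPM scale the split of all calls was 1028 higher of 1609, against 763 of 1525, and 8 members were higher and 3 lower. Without a trend in limma 3 members were higher and 2 lower. Of 13 macrophage markers 1 was higher, Itgam at 0.33, and 4 lower, among them Cd14 at -0.44 and Cd68 at -0.32; 2 were lower without PMAC SRBI knockdown replicate 1 or 2, and 2 higher without PMAC SRBI knockdown replicate 2 or PMAC chylomicron replicate 2. Of 5 mast cell and eosinophil markers measured 2 were lower, Cpa3 at -1.41 and Tpsb2 at -1.20, and 1 was lower without PMAC SRBI knockdown replicate 1 or PMAC chylomicron replicate 1. Of 5 endothelial markers measured 2 were lower, Eng at -0.34 and Esam at -0.57, and 1 was lower without PMAC SRBI knockdown replicate 2 or 3 or PMAC chylomicron replicate 1 or 3. Of the 15 endothelial markers listed, 12 were under 1 RPM in each PMAC group, among them Pecam1, Cdh5 and Kdr. Tek, Emcn, Robo4 and Cldn5 had no reads in any PMAC group. The part of these marker lists in the member results was not tested. The higher members were Fos, Egr1, Egr2, Zfp36l1, Zfp36l2, Dusp6 and Myc, and the lower ones Dusp1, Maff, Gadd45b and Plk2.

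**Figure D3:**
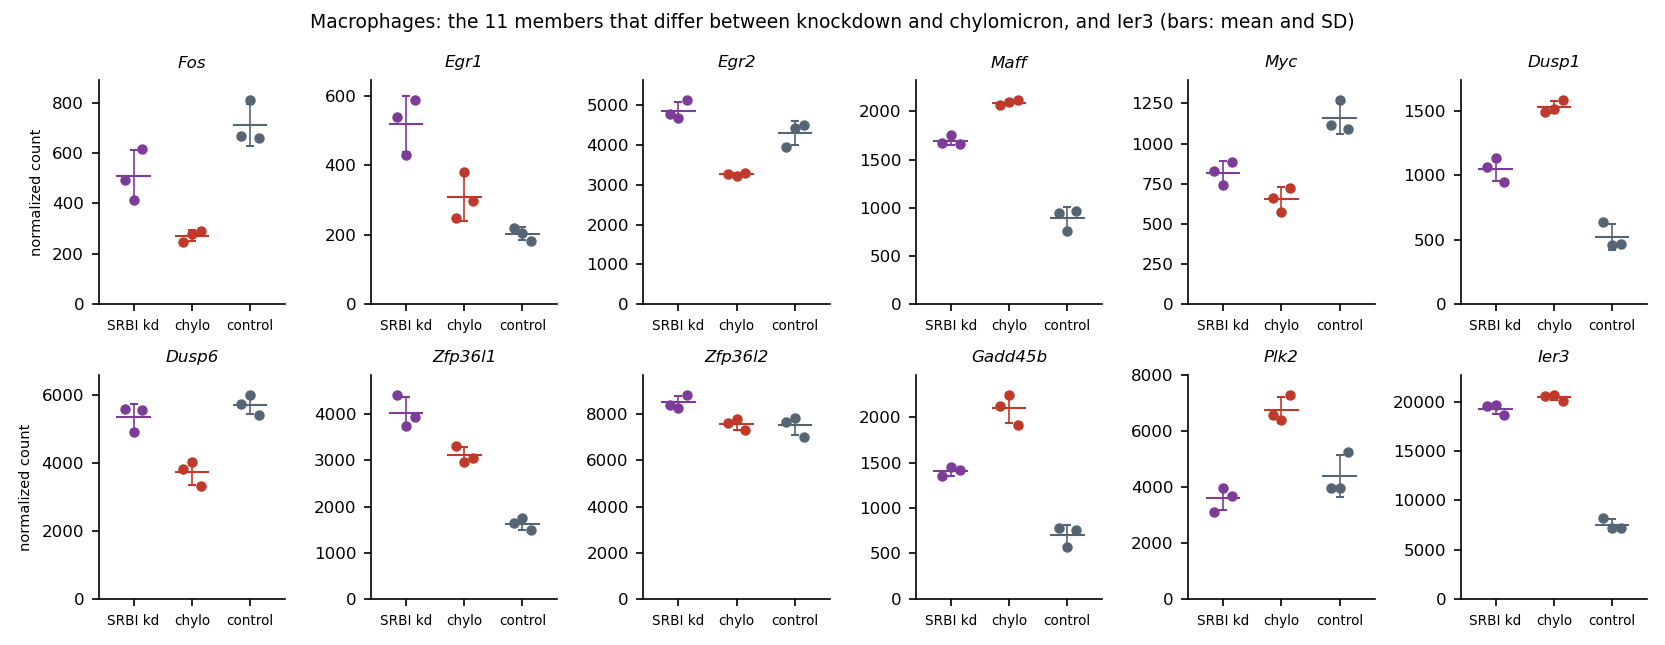
Normalized counts (vertical axes, linear, from 0) of the 11 members that differ between PMAC with SRBI knockdown and PMAC with chylomicrons, and of Ier3, one point for each library, with mean and SD as bars. Plk2 is at 3124 to 3960 with SRBI knockdown, 6402 to 7289 with chylomicrons and 3957 to 5250 in controls, and Ier3 is high in both treated groups.

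Plk2 (chromosome 13, 110395044 to 110400844) differed most: it had 3124, 3959.5 and 3694 normalized counts with SRBI knockdown, 6576, 6402 and 7289 with chylomicrons and 3974, 3957 and 5249.6 in controls, and the first of these differences was -0.92 (95% interval -1.12 to -0.71, adjusted p = 9.98e-06). Fos had 492, 412 and 618 with SRBI knockdown, 247, 277 and 289 with chylomicrons and 669, 809 and 661 in controls, so that the knockdown libraries lay between the others (log2 difference 0.89, 95% interval 0.59 to 1.18, adjusted p = 0.000424). Egr1 had 538, 429 and 587 with SRBI knockdown, 247, 379 and 297 with chylomicrons and 221, 204 and 183 in controls, highest with SRBI knockdown (log2 difference 0.76, 95% interval 0.42 to 1.10, adjusted p = 0.00546). The call for Egr1 did not hold with limma without a trend (adjusted p = 0.0638), with adjusted p from 0.000185 to 0.0638 over 18 alternatives. Egr2 had 4785, 4686 and 5128 with SRBI knockdown, 3279, 3227 and 3307 with chylomicrons and 3950.4, 4444 and 4502 in controls, and the difference from chylomicrons was 0.57 (95% interval 0.45 to 0.69, adjusted p = 5.65e-06). Dusp6 had 5566, 4909 and 5563 with SRBI knockdown, 3815, 4035 and 3322 with chylomicrons and 5733, 5985 and 5410.0 in controls, near the controls with SRBI knockdown (log2 difference 0.52, 95% interval 0.38 to 0.67, adjusted p = 9.59e-05).

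Dusp1 and Gadd45b stood between chylomicrons and controls with SRBI knockdown. For Dusp1 the 3 groups had 1060.4, 1130.2 and 948 with SRBI knockdown, 1488, 1509 and 1579 with chylomicrons and 634, 461 and 467 in controls, with a difference from chylomicrons of -0.55 (95% interval -0.78 to -0.32, adjusted p = 0.00304). For Gadd45b they had 1352, 1454 and 1414 with SRBI knockdown, 2128, 2243 and 1918 with chylomicrons and 777, 569 and 753 in controls (log2 difference -0.57, 95% interval -0.78 to -0.36, adjusted p = 0.00108). No library of the 3 groups overlapped another group in either gene. Zfp36l1 was higher with SRBI knockdown by 0.37 (adjusted p = 0.00273). The call for Zfp36l1 did not hold with limma without a trend (adjusted p = 0.0662), with adjusted p from 3.34e-05 to 0.0662 over 18 alternatives. The call for Dusp1 did not hold with limma without a trend (adjusted p = 0.0662), with adjusted p from 2.7e-05 to 0.0662 over 18 alternatives. Zfp36l2, Myc and Maff passed at 0.17 (adjusted p = 0.0439), 0.33 (adjusted p = 0.0419) and -0.30 (adjusted p = 0.0246). The call for Zfp36l2 did not hold without PMAC chylomicron replicates 1 or 3 (adjusted p = 0.0817 and 0.113), without PMAC SRBI knockdown replicates 1, 2 or 3 (adjusted p = 0.111, 0.0653 and 0.15), without PMAC control replicate 1 (adjusted p = 0.0576), with no minimum on the mean (adjusted p = 0.0899) and with limma without a trend (adjusted p = 0.168), with adjusted p from 0.00841 to 0.168 over 18 alternatives. The call for Myc did not hold without PMAC chylomicron replicates 1 or 2 (adjusted p = 0.0673 and 0.144), without PMAC SRBI knockdown replicates 1 or 3 (adjusted p = 0.135 and 0.157), without PMAC control replicates 1 or 3 (adjusted p = 0.0576 and 0.0532), with no minimum on the mean (adjusted p = 0.0685) and with limma without a trend (adjusted p = 0.149), with adjusted p from 0.0173 to 0.157 over 18 alternatives. The call for Maff did not hold without PMAC chylomicron replicates 2 or 3 (adjusted p = 0.051 and 0.0509), without PMAC SRBI knockdown replicates 1 or 3 (adjusted p = 0.0959 and 0.0749), with limma without a trend (adjusted p = 0.125) and on the RPM scale (adjusted p = 0.0528), with adjusted p from 0.00457 to 0.125 over 18 alternatives. Ier3 was -0.08 with an interval of -0.19 to 0.03, Junb 0.06 with -0.06 to 0.19 and Zfp36 -0.06 with -0.21 to 0.08. Ier2, at 0.29 (adjusted p = 0.057), Klf6, at -0.15 (adjusted p = 0.0624), and Dusp4, at -0.20 (adjusted p = 0.114), did not pass. Ier2 passed without PMAC chylomicron replicate 2 (adjusted p = 0.0199), with a mean of at least 50 (adjusted p = 0.0462), on the RPM scale (adjusted p = 0.0275) and with DESeq2 (adjusted p = 0.0328). Klf6 passed without PMAC SRBI knockdown replicate 3 (adjusted p = 0.0432), with a mean of at least 50 (adjusted p = 0.0495) and with DESeq2 (adjusted p = 0.0304). Dusp4 passed without PMAC SRBI knockdown replicate 2 (adjusted p = 0.0455). Related lists also differed: 9 of 16 transcripts with AU-rich elements were lower and 1 higher, 3 and 5 being lower without PMAC SRBI knockdown replicate 1 or 3, and 10 of 17 AP-1 target genes were higher and 2 lower. Ccl2 was higher with SRBI knockdown by 1.17 and the tumour necrosis factor gene Tnf lower, at -0.56.

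The chylomicron effect was then compared between the cell types as the EC log2 change minus the PMAC log2 change, in a fit of the 12 chylomicron and control libraries of EC and PMAC. Of 29 members 6 had a difference above 0, 6 below 0 and 17 did not pass; over all 12461 genes 10.9% were above and 7.03% below. The median difference was -0.13 over the members and 0.02 over all genes. On the RPM scale the median of all genes moved by 0.14 and the split of calls was 2298 above of 2836, against 1355 of 2231. The 2 cell types came from separately scaled tables and do not share controls, and cell type cannot be told apart from the table.

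**Figure D4:**
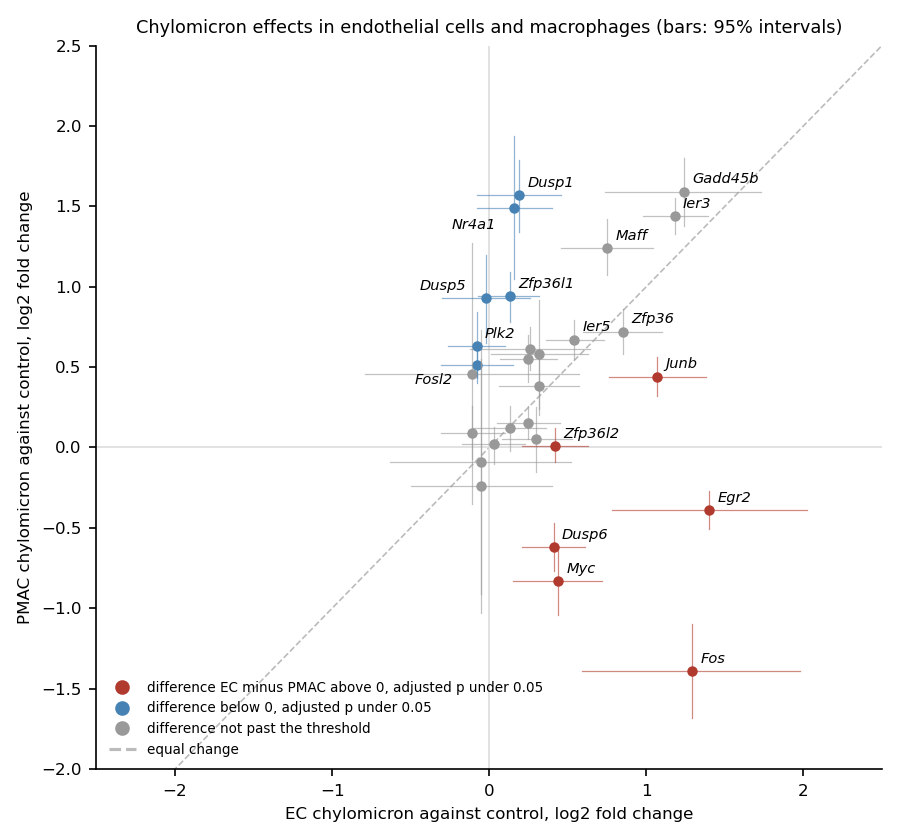
Log2 fold change with chylomicrons in EC (horizontal) and in PMAC (vertical), with 95% intervals, for the 29 members tested in both; red and blue mark members whose difference passed an adjusted p of 0.05, grey those that did not. Fos lies at 1.29 and -1.39, Dusp1 at 0.19 and 1.57, and Ier3 at 1.18 and 1.44.

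Fos, Egr2 and Dusp6 rose in EC and fell in PMAC. For Fos the change was 1.29 in EC and -1.39 in PMAC, a difference of 2.68 (95% interval 1.74 to 3.61, adjusted p = 0.000565). Egr2 stood at 1.40 in EC and -0.39 in PMAC (log2 difference 1.79, 95% interval 1.35 to 2.24, adjusted p = 2.74e-05), and Dusp6 at 0.41 in EC and -0.62 in PMAC (log2 difference 1.03, 95% interval 0.77 to 1.30, adjusted p = 3.66e-05). Myc, at 0.44 in EC without passing and -0.83 in PMAC, differed by 1.27 (95% interval 0.86 to 1.68, adjusted p = 0.000318). Junb rose in both, more in EC, with a difference of 0.63 (adjusted p = 0.0226), and Zfp36l2 differed by 0.41 (adjusted p = 0.0246). The call for Junb did not hold without EC control replicates 2 or 3 (adjusted p = 0.0581 and 0.0555), without PMAC control replicate 1 (adjusted p = 0.0544) and with limma without a trend (adjusted p = 0.0686), with adjusted p from 0.00249 to 0.0686 over 21 alternatives. The call for Zfp36l2 did not hold without EC control replicate 2 (adjusted p = 0.0595), without PMAC chylomicron replicate 3 (adjusted p = 0.0546), without PMAC control replicates 1 or 2 (adjusted p = 0.059 and 0.07) and with limma without a trend (adjusted p = 0.0639), with adjusted p from 0.00224 to 0.07 over 21 alternatives.

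A further 6 members had a higher log2 change in PMAC than in EC. Dusp1 stood at 0.19 in EC and 1.57 in PMAC, a difference of -1.38 (95% interval -1.80 to -0.96, adjusted p = 0.00019), and Nr4a1 at 0.16 in EC and 1.49 in PMAC (log2 difference -1.33, 95% interval -1.94 to -0.72, adjusted p = 0.00472). Dusp5 differed by -0.95 (adjusted p = 0.0055), Zfp36l1 by -0.81 (adjusted p = 0.000232), Plk2 by -0.71 (adjusted p = 0.0021) and Fosl2 by -0.59 (adjusted p = 0.00456). In EC none of these 6 passed. Junb, Ier3, Ier5, Zfp36, Maff and Gadd45b rose in both cell types, 54.5% of the 11 that rose in EC and 35.3% of the 17 that rose in PMAC. Over all genes 162 rose in both, 20.1% of the 805 that rose in EC and 7.44% of the 2178 that rose in PMAC. Of the 6 members Ier3 had a difference of -0.26 (95% interval -0.51 to -0.01, adjusted p = 0.142), Gadd45b of -0.36 (95% interval -0.93 to 0.22, adjusted p = 0.419) and Zfp36 of 0.13 (95% interval -0.18 to 0.44, adjusted p = 0.602), which leave room for unequal change. Maff, at -0.49 (adjusted p = 0.0647), passed without EC chylomicron replicate 3 (adjusted p = 0.0378) or EC control replicate 1 (adjusted p = 0.0433). It also passed with DESeq2 (adjusted p = 0.0334). Without EC chylomicron replicate 2, Btg2 and Dusp4 passed too (adjusted p = 0.0195 and 0.0384).

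Endothelial cells labelled SRBI-knockdown stood in a table without controls, so their levels are set beside the other EC groups in RPM and were not tested. Of the 29 members listed there, 20 were higher in every library than in every EC control, 6 lower and 3 overlapped; over 13826 genes 37.4% were higher and 27.5% lower. The median log2 ratio was 0.68 over the members and 0.08 over all genes. Beside EC with chylomicrons 16 were higher, 8 lower and 5 overlapped, with 30.5% of all genes higher and 24.9% lower and medians of 0.29 and 0.04. These libraries also had the lower endothelial and higher mesothelial marker sums given above, and the part of cell make-up, table or knockdown cannot be told apart.

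**Figure D5:**
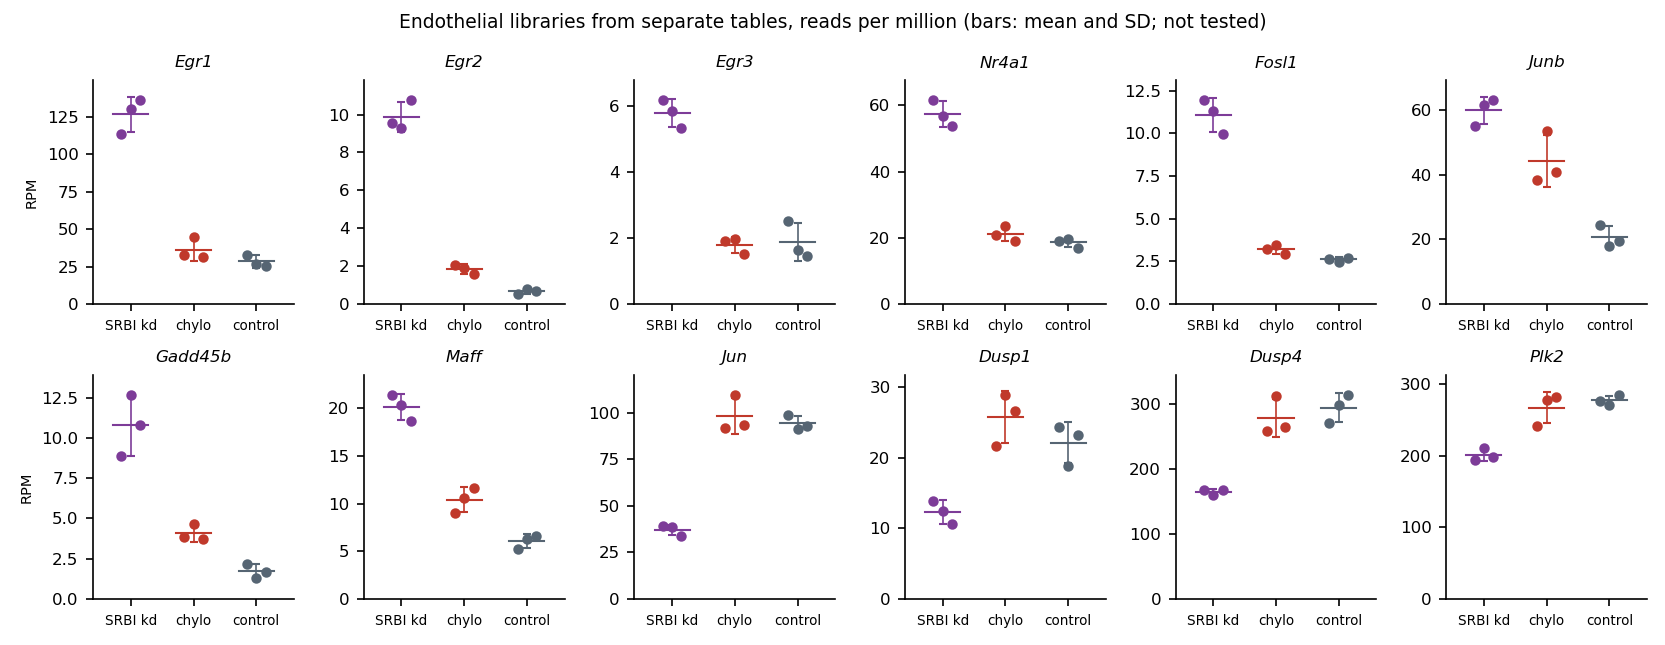
RPM (vertical axes, linear, from 0) of 12 members in EC with SRBI knockdown, EC with chylomicrons and EC controls, one point for each library, with mean and SD as bars; the knockdown libraries come from a separate table and no test was made. Egr1 averages 127 ± 11.7 with SRBI knockdown, while Jun, Dusp1, Dusp4 and Plk2 are lowest there.

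The EGR genes were all higher in EC with SRBI knockdown. Egr2 had 9.56, 9.31 and 10.7 RPM with SRBI knockdown, 2.08, 1.89 and 1.58 with chylomicrons and 0.543, 0.792 and 0.699 in controls, a ratio of 14.6 to controls. Egr1 had 113, 130.2 and 136 with SRBI knockdown, 32.6, 44.8 and 31.8 with chylomicrons and 33, 27.1 and 25.3 in controls, a ratio of 4.44. For Egr3 the means were 5.79 ± 0.421 with SRBI knockdown, 1.8 ± 0.243 with chylomicrons and 1.87 ± 0.573 in controls (SD, n = 3 each). Gadd45b averaged 10.8 ± 1.88 RPM with SRBI knockdown, 4.06 ± 0.512 with chylomicrons and 1.71 ± 0.444 in controls. The same order of means held for Fosl1 (11.1 ± 0.988 with SRBI knockdown, 3.2 ± 0.244 with chylomicrons and 2.62 ± 0.121 in controls), Nr4a1 (57.4 ± 3.86 with SRBI knockdown, 21.2 ± 2.21 with chylomicrons and 18.6 ± 1.42 in controls) and Maff (20.1 ± 1.37 with SRBI knockdown, 10.4 ± 1.35 with chylomicrons and 6.06 ± 0.706 in controls).

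Others went the opposite way in EC with SRBI knockdown. Jun had 39, 38.4 and 33.9 RPM with SRBI knockdown, 91.8, 109 and 93.2 with chylomicrons and 99, 91 and 93 in controls, a ratio of 0.393 to controls. Dusp4, a nuclear phosphatase, had 167, 159 and 168 with SRBI knockdown, 258, 311 and 264 with chylomicrons and 269.8, 298 and 313 in controls, and Dusp1 averaged 12.3 ± 1.65 with SRBI knockdown, 25.7 ± 3.69 with chylomicrons and 22.2 ± 2.9 in controls. Plk2, Btg2 and Dusp6 were also lower than in every control, at ratios of 0.726, 0.787 and 0.886. Zfp36 was higher than in controls (ratio 1.24) and lower than with chylomicrons (ratio 0.674). Fosb had 1.35, 3.1 and 3.93 RPM with SRBI knockdown, 8.9, 15.7 and 5.63 with chylomicrons and 1.94, 3.28 and 4.07 in controls, overlapping the controls and lying under every chylomicron library. Dusp2 and Nr4a3 were under the minimum, at 0 to 2.21 and 3.31 to 6.45 normalized counts.

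In controls the 2 cell types held the members at different levels. With EC controls set beside PMAC controls 11 of 29 members were higher in every library, 15 lower and 3 overlapped, again without a test, where 56.7% of all genes were higher and 29.1% lower. The median log2 ratio was -0.20 over the members and 0.44 over all genes. These values move with the scaling: by DESeq2 size factors 8 members were higher and 17 lower, and the median was -0.67 over the members and -0.03 over all genes. Egr2 differed most, at 0.543, 0.792 and 0.699 RPM in EC controls and 100.4, 113 and 116 in PMAC controls. The lower group in EC held Gadd45b (1.71 ± 0.444 in EC and 17.9 ± 2.95 in PMAC), Fosl1 (2.62 ± 0.121 in EC and 24.2 ± 0.933 in PMAC), Junb (20.6 ± 3.39 in EC and 163 ± 4.81 in PMAC) and Ier3 (25.5 ± 2.55 in EC and 192 ± 14.6 in PMAC). In the higher group were Dusp4 (294 ± 21.9 in EC and 32.3 ± 1.14 in PMAC), Nr4a1 (18.6 ± 1.42 in EC and 2.77 ± 0.76 in PMAC) and Egr1 (28.5 ± 4.04 in EC and 5.17 ± 0.447 in PMAC). Values are means ± SD in RPM over 3 libraries.

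In RefSeq 5 members overlap another annotated gene: Fosl1 with Ccdc85b, Egr2 with Gm32255, Dusp6 with Gm34921, Nr4a2 with LOC105244150 and Plk3 with Tctex1d4. The library kit marks strand, but whether the counting used it is not given in the sources used here, so reads of these pairs may have been left out or shared and the values of these 5 members are uncertain to that extent.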

How the data were processed

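The 18 mRNA libraries were deposited as 3 tables of normalized counts, a signal that the authors scaled by library. The submitters' processing notes name STAR 2.7.3a, featureCounts, Subread 1.6.3, bcl2fastq and the build mm10 (GRCm38), without their roles or order. In every library 100% of values were whole reads divided by 1 factor, within 0.01 reads, so reads and RPM, reads in each 1000000, were recovered from them. Genes whose mean reached 10 were tested with limma 3.58.1 in R 4.3.3 on log2(normalized count + 1), with empirical Bayes and a trend, two-sided, and Benjamini-Hochberg adjustment over all genes tested. A fold change on that scale understates the change of low genes. PMAC comparisons came from a single fit of 9 libraries, EC from 6 and the difference between cell types from 12. Alternatives were other pseudocounts and minimums, no trend, RPM scaling, edgeR 4.0.16 and DESeq2 1.42.0 on the recovered reads (edgeR called 1301, 4489, 4238, 1561 and 2499 genes, against 1317, 4550, 4109, 1525 and 2231 by limma, in the order of the comparisons), a replicate block and libraries left out. The EC SRBI knockdown table has no controls of its own and was compared in RPM without a test. Of 18 replicate pairs 0 were identical. The fits were tested on simulated data. All members past the minimum are described by role; of each list of related genes at most 2 per direction with the smallest p could be named. The members and gene lists were chosen with earlier results of these data known. Media miRNA libraries were not used here.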

Additional observations from a re-analysis of the deposited data

Results flagged for a closer look

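The 12 members whose chylomicron effect differed between EC and PMAC by the interaction test in limma (adjusted p under 0.05) are listed here as EC log2 change minus PMAC log2 change. The difference was 2.68 for Fos, 1.79 for Egr2, 1.27 for Myc, 1.03 for Dusp6, 0.63 for Junb and 0.41 for Zfp36l2. It was -1.38 for Dusp1, -1.33 for Nr4a1, -0.95 for Dusp5, -0.81 for Zfp36l1, -0.71 for Plk2 and -0.59 for Fosl2. Cell type, table and, as far as the labels go, the kind of treatment cannot be told apart in these differences.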

How the results depend on the processing

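Of 77 member calls over the 5 comparisons, 55 held under every alternative run, and no called member changed direction. With single libraries left out, the members that rose numbered 7 to 13 in EC with chylomicrons, 16 to 17 in PMAC with chylomicrons and 16 to 19 in PMAC with SRBI knockdown; those that fell numbered 0, 4, and 2 to 3. In PMAC with SRBI knockdown against chylomicrons 5 to 7 were higher and 3 to 5 lower, and in the difference between cell types 4 to 6 were above 0 and 6 to 8 below. In EC 7 members rose with limma without a trend and 7 when chylomicron replicate 2 was left out together with control replicate 1. Without a trend 1 member fell in PMAC with SRBI knockdown, and 3 were higher and 2 lower than with chylomicrons; the cause was not tested. The median log2 ratio of EC controls beside PMAC controls was -0.67 over the members with DESeq2 size factors, where all genes were at -0.03, and -0.31 without the 10 most abundant genes, where all genes were at 0.33.

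Members that did not pass changed sign near 0, and the cause was not tested. On the RPM scale the log2 value was 0.00495 for Dusp5 in EC, -0.0996 for Jun, -0.0695 for Ier2, -0.102 for Zfp36l2 and -0.0219 for Dusp4 in PMAC with chylomicrons, -0.0755 for Klf6 with SRBI knockdown, 0.00967 for Jun with SRBI knockdown against chylomicrons, and 0.0808 for Jund and 0.0108 for Ier5 in the difference between cell types. By DESeq2 the difference for Egr3 was -0.00994. In the EC fit on 4 libraries, lacking chylomicron replicate 2 and control replicate 1, Jun was at -0.00633 and Egr3 at 0.123, and with PMAC chylomicron replicates 1 and 2 both left out Egr3 was at 0.189, Ier2 at -0.151 and Zfp36l2 at -0.0371. With single libraries left out, for EC with chylomicrons the ranges were Dusp2 -0.323 to 0.0763, Dusp5 -0.108 to 0.0836, Nr4a2 -0.238 to 0.0866, Jun -0.0574 to 0.0799, Fosl2 -0.182 to 0.0492 and Egr3 -0.228 to 0.196. For PMAC with chylomicrons the ranges were Egr3 -0.259 to 0.13, Ier2 -0.0345 to 0.145 and Zfp36l2 -0.0332 to 0.0455. For PMAC with SRBI knockdown against controls the ranges were Jun -0.0473 to 0.0223 and Klf6 -0.0315 to 0.0437. For PMAC with SRBI knockdown against chylomicrons the range was Jun -0.0638 to 0.0058. For the EC minus PMAC difference the ranges were Egr3 -0.183 to 0.286, Jun -0.0739 to 0.0633, Zfp36 -0.00757 to 0.199, Plk3 -0.0337 to 0.0573 and Jund -0.208 to 0.0458.

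The replicate numbers are shared between groups, but same-numbered libraries did not deviate together, with correlations of -0.161 to 0.175 in EC and -0.104 to 0.075 in PMAC. With the replicate number as a block 12 members rose and 0 fell in EC, 17 and 4 in PMAC with chylomicrons, 18 and 3 with SRBI knockdown, 6 were higher and 4 lower with SRBI knockdown than with chylomicrons, and 6 were above and 7 below 0 in the difference between cell types. Jund with SRBI knockdown no longer passed under the block (adjusted p = 0.073), nor did Zfp36l2 (0.0725) and Myc (0.0608) with SRBI knockdown against chylomicrons, while Myc in EC (0.0143), Ier2 with SRBI knockdown against chylomicrons (0.0438) and Maff in the difference between cell types (0.0428) then passed. The 95% intervals of the scarce members Egr3, Dusp2 and Nr4a2 in PMAC with chylomicrons ran from -0.91 to 0.73, -0.35 to 1.27 and -1.03 to 0.55, and whether depth or the spread between libraries sets their width was not tested.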
